A study of Sus scrofa domesticus with 8 samples.

Results

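Gene expression in porcine granulosa cells after 144 h of culture was set against that of the same kind of cell at 0 h of culture. The comparison took the 4 arrays whose labels give 144 h or 0 h, 2 per time, out of 8 arrays in the study. It used all 27558 features of the array. Its standard errors and tests came from a fit to all 8 arrays, which also pools the scatter at 48 h and 96 h. The donors were 43 gilts of a Landrace cross, aged 170 days and weighing 98 kg at the median, and their granulosa cells were collected after slaughter. No genotype, strain beyond the breed, or treatment other than culture distinguished the groups. The culture medium was DMEM containing 2% fetal bovine serum and 4 mM glutamine, at 37 °C under 5% CO2, and the 0 h arrays hold RNA taken at the start. The labels record no pooling of animals and leave unsaid whether duplicate arrays stand for different animals or culture dishes. P-values here therefore cover the scatter of the arrays alone, which may be technical. The number of arrays limits the precision of every value. No label gives an array batch.

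Granulosa cells line the wall of the ovarian follicle and surround the oocyte. In the follicle they sit on a basement membrane, are joined by gap junctions, divide under the drive of follicle-stimulating hormone and estrogen, and turn androgen from the theca layer into estradiol. After ovulation they leave the cell cycle, rebuild the tissue around them and make progesterone as luteal cells. Cells taken from a follicle into a dish lose their contact with the oocyte and the theca and attach to plastic.

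Values are log2 intensities, on which a difference of 1 is a 2-fold difference, and a feature is a set of probes for 1 transcript. Each difference is the mean of the 2 arrays at 144 h minus the mean of the 2 arrays at 0 h. Its standard error (SE) comes from the fit to all arrays of the study, which pools the scatter of every time. A gene "rose" or "fell" where limma's moderated test gave a Benjamini-Hochberg adjusted p below 0.05 over all 27558 features, and it is then said to be called. Array medians ran from 4.52 to 4.63. The lower quartile of the features lay at 3.23 and 3.25 on the 0 h arrays and at 3.13 and 3.20 on the 144 h arrays, and a level near or below it is described as dim. Duplicate arrays differed with an SD over all features of 0.382 at 144 h and 0.249 at 0 h, against 0.265 at 48 h and 0.162 at 96 h.

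The 0 h arrays carried the transcripts of granulosa cells. LHCGR, the receptor for luteinizing hormone, read 10.38 and 10.40, and HSD17B1, which converts estrone to estradiol, read 10.78 and 10.90. FST, the activin-binding protein follistatin, read 11.16 and 11.31. CYP17A1, the androgen-making enzyme of the theca, was dim on all 4 arrays. It read 2.96 and 2.96 at 0 h and 2.70 and 2.88 at 144 h. It does not stand for the whole list of theca markers. LHCGR is also on that list, and another member, APOA1, read 6.54 and 6.58 at 0 h. At 144 h most measured genes of granulosa identity were lower, 14 of 23, and 2 were higher. WT1, a transcription factor of granulosa cells that is also on the list of surface epithelium markers, was among the higher ones and read 6.84 and 7.17. HSD3B1, which makes progesterone and is not on the identity list, read 9.81 and 9.91. AMH, the anti-Müllerian hormone of growing follicles, read 2.89 and 3.27, beside or below the lower quartile. Several defining granulosa genes, among them FSHR, CYP19A1, STAR, CYP11A1 and FOXL2, lacked a named feature and are not analysed here.

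Of the 27558 features, 8845 were called (32.1%), 4240 higher (15.4%) and 4605 lower (16.7%) at 144 h. The features with 1 gene symbol stood for 10707 genes, of which 3941 were called (36.8%), 2058 higher (19.2%) and 1883 lower (17.6%). Both 144 h arrays lay above both 0 h arrays in 30.5% of named genes and below them in 33.5%. These shares are the background against which the counts of each gene group are read. The median difference was -0.03 over all named genes and -0.05 over all features. The large changes leaned upward: 346 genes rose and 244 fell by at least 4-fold, 144 rose and 71 fell by at least 8-fold, and 26 rose and 6 fell by at least 32-fold. A fit to the 4 arrays alone called 2911 of the same 3941 genes.

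The 6 falls of at least 32-fold were in GSTA1, DAPL1, HSD17B1, PLA2G4E, SNX31 and CXCL10. GSTA1, a glutathione transferase that can also act as a steroid isomerase, read 11.69 and 11.68 at 0 h and 2.84 and 3.76 at 144 h. Its difference was -8.39 ± 0.26 (adjusted p 3.85e-07), and since the 144 h arrays lie beside the lower quartile this difference may understate the fall. DAPL1, death-associated protein-like 1, read 10.87 and 10.83 at 0 h and 2.67 and 3.14 at 144 h. For both genes the 144 h arrays lay far below the 0 h arrays and near the dim end of the array. HSD17B1 read 10.78 and 10.90 at 0 h and 4.32 and 4.10 at 144 h, a difference of -6.63 ± 0.14 (adjusted p 9.61e-08). PLA2G4E, a cytosolic phospholipase, went from 9.24 and 9.40 to 3.85 and 3.91. SNX31, a sorting nexin, went from 9.71 and 9.84 to 4.63 and 4.60. For HSD17B1, PLA2G4E and SNX31 duplicates lay close together and the falls were many times their spread.

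Rises of the same size included many secreted and matrix proteins. SFRP2, a secreted Wnt-binding protein, read 3.31 and 4.04 at 0 h and 10.69 and 10.68 at 144 h, a difference of 7.02 ± 0.21 (adjusted p 3.25e-07). LIPG, endothelial lipase, went from 3.39 and 3.33 to 10.49 and 9.69. POSTN, the matrix protein periostin, went from 3.46 and 3.68 to 9.93 and 10.16. All 3 were dim or nearly dim at 0 h and high on both 144 h arrays. LOX, lysyl oxidase, which cross-links collagen and elastin, differed by 6.24 ± 0.10 and its arrays were tight, at 5.24 and 5.20 and 11.48 and 11.43. FN1, fibronectin, went from 5.52 and 5.60 to 11.81 and 11.51. DCN, the small collagen-binding proteoglycan decorin, went from 5.16 and 5.34 to 11.31 and 11.17. Both genes were already above the median of the arrays at 0 h, so their rises were measured well above the dim end on each side. SFRP2 has several features, whose differences ran from 5.26 to 7.02.

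**Figure D1:**
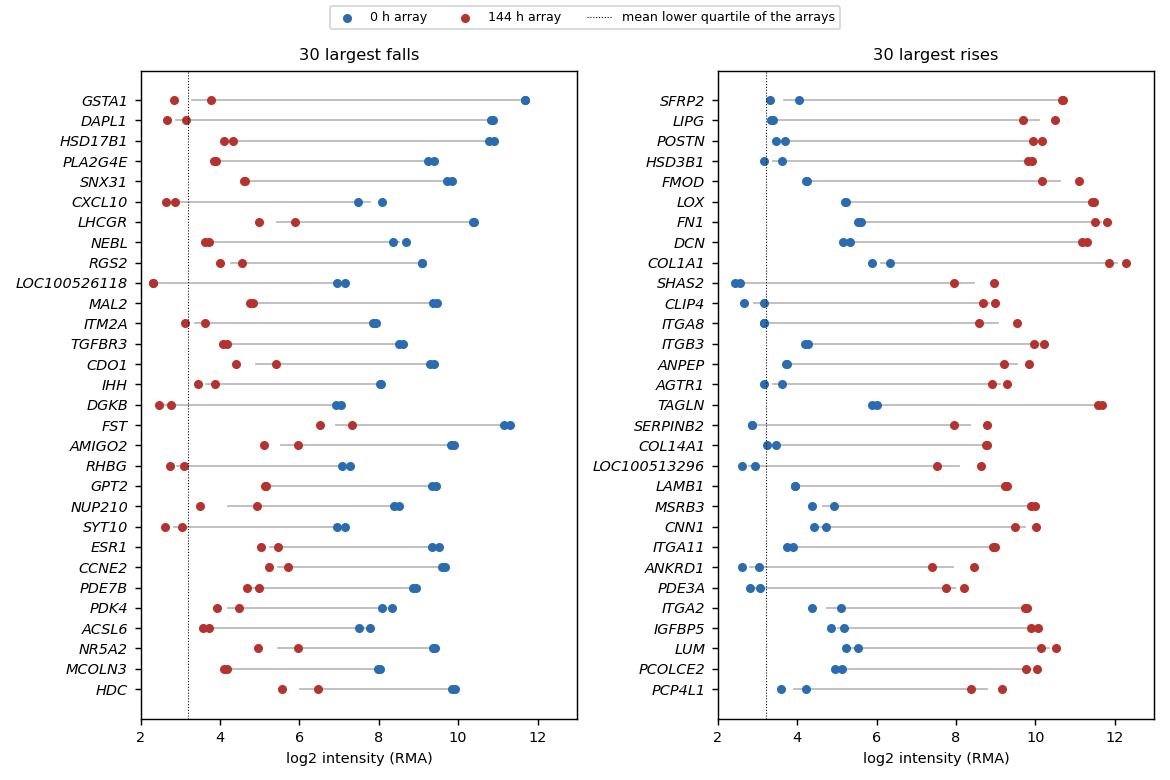
Log2 intensity (RMA) on each 0 h array (blue) and each 144 h array (red) for the 30 genes with the largest falls (left) and the 30 with the largest rises (right) among called genes whose arrays do not overlap between times; a grey line joins the 2 means and the dotted line is the mean lower quartile of the 4 arrays. GSTA1, DAPL1 and CXCL10 end near the dotted line at 144 h, while LOX, FN1 and TAGLN start well above it and end among the highest values drawn.

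Genes of granulosa identity fell as a group. Of 23 measured members, 14 fell (60.9%) and 2 rose (8.7%), and the median difference was -1.24. LHCGR read 10.38 and 10.40 at 0 h and 5.89 and 4.99 at 144 h, a difference of -4.95 ± 0.28 (adjusted p 5.88e-06). ESR1, the estrogen receptor alpha, went from 9.35 and 9.52 to 5.03 and 5.47, and its features ranged from -4.18 to -3.19. Both receptors lost most of their signal on both arrays, although the 144 h arrays lay some way apart for LHCGR. ESR2, the estrogen receptor beta, the form that granulosa cells are known for, had a difference of -0.21 (95% interval -0.66 to 0.24) and was not called. NR5A2, a nuclear receptor that drives steroidogenic genes, differed by -3.94 ± 0.27. AMH went from 5.43 and 5.63 to 2.89 and 3.27, a difference of -2.46 ± 0.16. FOXO1, a transcription factor held in check by follicle-stimulating hormone, differed by -1.24 ± 0.16 on the feature used and by -2.45 on another. WT1 went the other way, by 0.83 ± 0.14, from 6.19 and 6.16 to 6.84 and 7.17. KITLG, the kit ligand that granulosa cells send to the oocyte, had a difference of 1.00 (95% interval 0.24 to 1.76) and was not called (adjusted p 0.0504), although 9 of the 18 alternative settings called it. In a bulk sample such as this, fewer cells of a type and less RNA per cell cannot be told apart. The summed intensity of the identity genes on the linear scale was 17953 and 18765 at 0 h and 5686 and 6912 at 144 h, with no overlap.

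Steroid synthesis did not move one way. Among 26 measured genes, 6 rose (23.1%) and 9 fell (34.6%), with a median of -0.12. HSD17B1 fell by 6.63 ± 0.14, as given above. HSD3B1 read 3.62 and 3.17 at 0 h, at or just above the lower quartile, and 9.81 and 9.91 at 144 h. Its difference was 6.46 ± 0.16 (adjusted p 1.5e-07). FDXR, ferredoxin reductase, which feeds electrons to the mitochondrial side-chain cleavage enzyme, fell from 7.85 and 7.78 to 4.51 and 4.32. MGARP, a mitochondrial protein linked to steroid output, differed by -1.56 ± 0.25. HSD11B1, which regenerates active cortisol, differed by -1.34 ± 0.14. These 3 fell on both arrays. TSPO, an outer mitochondrial membrane protein, went from 5.01 and 5.42 to 6.75 and 7.17. NPC2, which takes cholesterol out of lysosomes, went from 8.95 and 8.95 to 10.74 and 10.82, with the arrays of each time close together. SCARB1, the receptor that takes up cholesterol from high-density lipoprotein, fell by 1.08 ± 0.18, from 10.49 and 10.58 to 9.74 and 9.16.

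Genes for cholesterol synthesis and lipid supply leaned upward. Of 25 measured, 15 rose (60%) and 1 fell, with a median of 0.83. HMGCS1, which makes the precursor of mevalonate, rose by 1.30 ± 0.27. SQLE, squalene epoxidase, rose by 1.99 ± 0.28, from 5.99 and 5.68 to 8.30 and 7.35. SC5D, a late desaturase of the pathway, rose by 1.39 ± 0.23. The early, middle and late steps of the pathway were thus each represented among the rises. ABCA1, which exports cholesterol, rose by 1.58 ± 0.14. ACSL4, which activates long-chain fatty acids such as arachidonate, rose from 8.75 and 8.91 to 11.47 and 11.06. ACSL6, a related enzyme that is not on the list, fell from 7.51 and 7.77 to 3.73 and 3.58. The fatty acid transporter CD36 was the called member of the list that fell, with a difference of -0.99 ± 0.19. PLIN2, which coats lipid droplets, had a difference of -0.21 (95% interval -0.61 to 0.19), but without the second 144 h array it was called lower (-0.45, adjusted p 0.0434).

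Signals of the TGF-beta family, which pass between granulosa cells and oocyte, changed at several levels. Of 39 measured genes 13 rose (33.3%) and 10 fell (25.6%). Among ligands and their traps, INHBA, the activin and inhibin beta A subunit, fell from 11.61 and 11.59 to 9.10 and 9.52. FST fell from 11.16 and 11.31 to 6.51 and 7.32, a difference of -4.32 ± 0.23. The ligand subunit and its trap therefore both fell, the trap by more. TGFB1, the ligand TGF-beta 1, rose by 2.39 ± 0.17. GREM1, a trap for bone morphogenetic proteins, went from 4.49 and 4.35 to 9.06 and 7.09. Every 144 h array lay above the 0 h arrays, but the 144 h arrays differed from each other by more than 1. Among receptors, TGFBR3, the betaglycan co-receptor that inhibin uses, fell from 8.50 and 8.62 to 4.17 and 4.08. ACVR1, a type I receptor, rose by 1.77 ± 0.12. Inside the cell, SMAD2, which carries the activin signal, fell by 2.03 ± 0.11, while the inhibitory SMAD7 rose from 2.58 and 2.91 to 6.31 and 6.32. PMEPA1, a target and brake of TGF-beta signalling, rose by 2.09 ± 0.13.

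Genes that set the supply of insulin-like growth factor rose and fell in equal number. Of 16 measured, 6 rose (37.5%) and 6 fell (37.5%). The ligand IGF1 read 10.15 and 10.16 at 0 h and 9.31 and 8.29 at 144 h, a difference of -1.35 ± 0.28. PAPPA, the protease that frees the ligand from its binding proteins, fell from 8.18 and 8.26 to 5.86 and 5.94. GHR, the growth hormone receptor, fell from 7.35 and 7.54 to 5.39 and 4.79. IRS1, an adaptor of the receptor, differed by -1.91 ± 0.14, and the insulin receptor INSR had a difference of -1.38 ± 0.17. All 5 fell on both arrays. IGFBP5, which binds the ligand, went from 4.86 and 5.18 to 9.90 and 10.07, a difference of 4.97 ± 0.14. IGFBP7 went from 8.43 and 8.49 to 10.46 and 10.31. STC1, a stanniocalcin that inhibits PAPPA, went from 5.55 and 5.43 to 7.23 and 7.77. STC2, its relative, differed by 1.25 ± 0.12. IGFBP3 was not called, with a difference of 0.25 (95% interval -0.48 to 0.99), and its 144 h arrays lay on either side of the 0 h arrays, at 4.71 and 5.88 against 4.99 and 5.09. Without the first 144 h array it was called (adjusted p 0.00456).

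**Figure D2:**
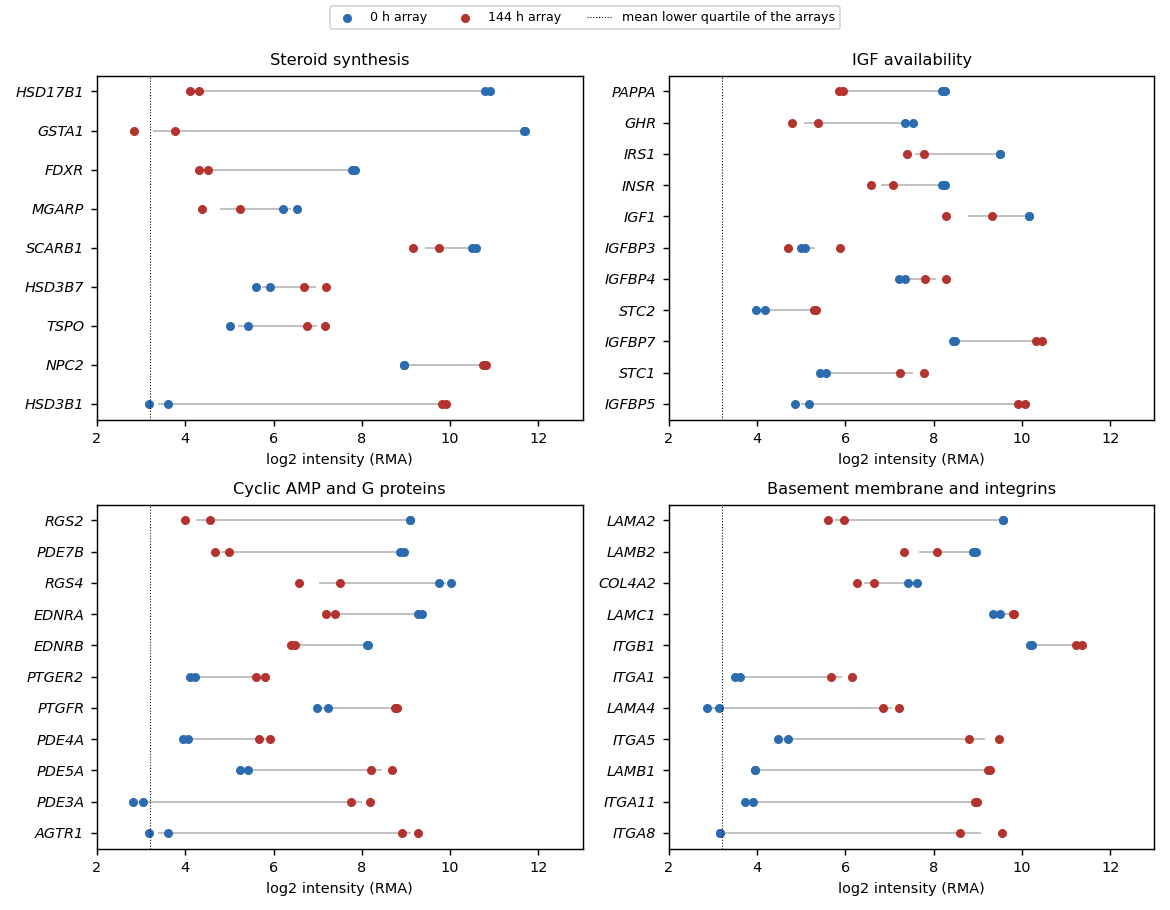
Log2 intensity (RMA) on each 0 h array (blue) and each 144 h array (red) for genes of steroid synthesis, insulin-like growth factor availability, cyclic AMP and G protein signalling, and basement membrane and integrins; a grey line joins the 2 means and the dotted line is the mean lower quartile of the 4 arrays. HSD17B1 and HSD3B1 lie at opposite ends of the first panel, and PAPPA and IGFBP5 at opposite ends of the second. EDNRB, PTGER2, PTGFR, COL4A2 and ITGB1 were chosen after their values were seen.

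Other growth factor genes moved in both directions. Of 50 measured, 14 rose (28%) and 11 fell (22%). ERBB4, a receptor for neuregulins and betacellulin, fell by 2.60 ± 0.15, and its other feature differed by -1.61. KIT, the receptor for kit ligand, fell by 1.77 ± 0.17. The angiopoietins ANGPT1 and ANGPT2, which act on vessels, both fell, with differences of -2.27 ± 0.12 and -1.98 ± 0.13. VEGFC, a growth factor for lymphatic vessels, rose by 2.96 ± 0.13. Several receptor kinases were among the rises. PDGFRB, a receptor for platelet-derived growth factor, went from 4.68 and 4.62 to 6.89 and 7.05. ROR2, a Wnt5a receptor, went from 3.78 and 3.90 to 8.01 and 7.27. FGFR2 and MET, receptors for fibroblast and hepatocyte growth factors, rose by 3.45 ± 0.40 and 2.72 ± 0.16. FGF2, a mitogen often added to such cultures, rose by 1.25 ± 0.29, a call lost without the first 0 h array (adjusted p 0.0714).

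Hedgehog, Wnt and Notch genes moved both ways. Of 41 measured members 8 rose (19.5%) and 8 fell (19.5%), close to the shares over all named genes, and without the first 0 h array the rises came to 5. IHH, the hedgehog ligand that granulosa cells send to the theca, fell from 8.02 and 8.06 to 3.87 and 3.44, a difference of -4.39 ± 0.18 (adjusted p 1.09e-06). LGR4, an R-spondin receptor, fell by 3.35 ± 0.19, and TCF7L2, a Wnt transcription factor, fell by 2.38 ± 0.11. JAG1, a Notch ligand, fell by 2.04 ± 0.13. SFRP1 and FRZB, secreted Wnt inhibitors, rose: SFRP1 went from 3.26 and 3.37 to 7.03 and 4.96 and FRZB differed by 1.79 ± 0.25. FZD2, a Wnt receptor, rose by 2.92 ± 0.18.

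In the relay from hormone receptors through cyclic AMP, individual enzymes and receptors changed places. Of 45 measured genes, 13 rose (28.9%) and 10 fell (22.2%). Phosphodiesterases, which break cyclic nucleotides down, changed by type. PDE7B fell from 8.95 and 8.87 to 4.67 and 4.99. PDE3A rose from 2.82 and 3.05, which is dim, to 7.75 and 8.19. PDE5A rose from 5.23 and 5.42 to 8.68 and 8.20. The cyclic AMP-specific PDE7B was thus low where PDE3A was high, on every array of the comparison. RGS2, which speeds up the shut-off of G proteins, fell from 9.09 and 9.10 to 3.99 and 4.55, and RGS4 from 9.75 and 10.02 to 7.51 and 6.58. AGTR1, the type 1 angiotensin receptor, rose from 3.17 and 3.62 to 9.28 and 8.91, a difference of 5.70 ± 0.20 (adjusted p 5.7e-07). EDNRA, an endothelin receptor, fell from 9.37 and 9.28 to 7.39 and 7.19. ADCY8, a calcium-stimulated adenylyl cyclase, rose by 2.18 ± 0.43, from 3.27 and 3.29 to 4.65 and 6.26. Its 144 h arrays thus differed by more than 1, and at 96 h it read 3.62 and 3.29.

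Most interstitial matrix genes rose. Of 30 measured members, 22 rose (73.3%) and 3 fell, with a median of 2.43. COL1A1, the alpha 1 chain of type I collagen, read 5.88 and 6.33 at 0 h and 12.28 and 11.86 at 144 h. Its difference was 5.96 ± 0.19 (adjusted p 4.11e-07) on the feature used, and its features ranged from 2.97 to 5.96. COL3A1, the chain of type III collagen, went from 4.13 and 4.22 to 9.01 and 8.59. COL14A1, which decorates collagen fibrils, went from 3.25 and 3.46 to 8.75 and 8.77. All 3 collagen genes had 144 h arrays far above both 0 h arrays. TNC, tenascin C, rose by 3.42 ± 0.27, LTBP2, a microfibril protein, by 4.67 ± 0.17 and FBLN5, an elastic fibre protein, by 2.98 ± 0.25. The called falls in the list were MFAP2, SPP1 and FBN2, of which FBN2 was chosen after its value was seen. MFAP2, a microfibril glycoprotein, fell by 2.13 ± 0.41. SPP1, osteopontin, fell by 1.96 ± 0.31.

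Enzymes that finish and cross-link collagen rose with it, with exceptions. Of 21 measured, 13 rose (61.9%) and 2 fell. LOX was the largest rise. PCOLCE2, an enhancer of procollagen cleavage, went from 5.14 and 4.94 to 10.04 and 9.77. CREB3L1, a membrane-bound transcription factor that drives collagen secretion, rose by 3.89 ± 0.11. TGM2, a transglutaminase that links matrix proteins, rose by 2.90 ± 0.13. BMP1, the protease that trims procollagen, fell from 10.68 and 10.69 to 8.61 and 8.61, and SERPINH1, the collagen chaperone, read 9.99 and 10.15 and 9.51 and 9.76. For SERPINH1 the call was lost in the 4 arrays alone (adjusted p 0.11) and without either 0 h array (0.0649 and 0.184). The cleavage enzyme therefore fell while its enhancer rose.

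Proteoglycans and hyaluronan followed the collagens in part. Of 39 measured, 15 rose (38.5%) and 6 fell (15.4%). The small leucine-rich proteoglycans, which bind collagen fibrils, were among the rises. FMOD, fibromodulin, went from 4.24 and 4.22 to 11.10 and 10.16. LUM, lumican, went from 5.54 and 5.23 to 10.53 and 10.15. BGN, biglycan, differed by 3.95 ± 0.17. Each of these lay far higher on every 144 h array than on any 0 h array. SHAS2, the annotation's symbol for the porcine hyaluronan synthase 2, which cumulus and granulosa cells use before ovulation, rose from a dim 2.56 and 2.44 to 8.96 and 7.96. CD44, a hyaluronan receptor, rose by 3.87 ± 0.12. HAPLN1, which links hyaluronan to proteoglycans, fell from 4.01 and 4.31 to 2.86 and 3.44.

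The basement membrane changed its laminin chains. Of 16 measured genes 6 rose (37.5%) and 5 fell (31.2%). LAMA2, the laminin alpha 2 chain, fell from 9.58 and 9.56 to 5.61 and 5.97, a difference of -3.78 ± 0.16 (adjusted p 1.42e-06). LAMB2, the beta 2 chain, fell from 8.90 and 8.95 to 7.33 and 8.07. LAMA4, the alpha 4 chain, rose from a dim 2.86 and 3.14 to 7.21 and 6.85, and LAMB1, the beta 1 chain, from 3.95 and 3.95 to 9.28 and 9.24. Both the alpha and the beta position thus held 1 chain that fell and 1 that rose. LAMC1, the gamma 1 chain that laminins of either kind share, differed by 0.38 ± 0.11, but quantile normalization, cyclic loess and the 4 arrays alone ended this call (adjusted p 0.0889, 0.241 and 0.115), as did leaving out either 0 h array (0.157 and 0.0501). COL15A1, which sits between basement membrane and collagen fibrils, rose by 4.65 ± 0.15.

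Integrins, the receptors for these matrix proteins, rose in 11 of 15 measured members (73.3%), with 0 falls (0 at an unadjusted p below 0.05) and a median of 1.57. ITGA8, whose ligands include fibronectin and nephronectin, rose from a dim 3.17 and 3.16 to 9.54 and 8.59. ITGA11, a collagen receptor of mesenchymal cells, rose from 3.90 and 3.73 to 8.98 and 8.94. ITGA5, the fibronectin receptor subunit, rose from 4.48 and 4.70 to 9.47 and 8.79, and ITGB3, part of the vitronectin receptor, from 4.20 and 4.27 to 10.21 and 9.96. Collagen and fibronectin receptors were therefore both among the rises. ITGA2, another collagen receptor subunit, rose by 5.01 ± 0.21 on the feature used, and its features ran from 2.79 to 5.26. ITGA6, ITGA3, ITGB4 and ITGB6, named here after their values were seen, had differences from -0.24 for ITGB6 to 0.05 for ITGB4 and were not called. ITGA6 pairs with ITGB4 as a laminin receptor of epithelia.

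Focal adhesion genes and targets of the mechanosensitive factor YAP moved with the integrins: 14 of 20 rose (70%), 0 fell (0 at an unadjusted p below 0.05), and the median was 1.49. ANKRD1, a YAP target, went from 2.62 and 3.03 to 7.39 and 8.45. ACTN1, alpha-actinin, which anchors actin at adhesions, went from 6.90 and 6.86 to 11.12 and 11.18. THBS1, thrombospondin 1, rose by 3.29 ± 0.11, and the adhesion proteins VCL and ZYX by 1.79 ± 0.11 and 1.91 ± 0.13. Actin and contractile genes rose in 21 of 27 (77.8%) and fell in 4, and the falls came to 2 in the 4 arrays alone and without the second 0 h array. TAGLN, transgelin, read 5.89 and 6.02 at 0 h and 11.57 and 11.68 at 144 h, a difference of 5.67 ± 0.11 (adjusted p 9.57e-08). CNN1, calponin, went from 4.72 and 4.43 to 10.01 and 9.48, and ACTA2, smooth muscle actin, differed by 3.82 ± 0.12. The called falls were NEBL, nebulette, MYOCD, myocardin, a co-activator of smooth muscle genes, TPM3 and RND3, of which RND3 was chosen after its value was seen. NEBL fell from 8.37 and 8.68 to 3.63 and 3.73 and MYOCD from 6.27 and 6.46 to 4.48 and 4.10. TPM3, a tropomyosin, differed by -0.56 ± 0.13 and RND3 by -0.46 ± 0.12, and the 4 arrays alone called neither (adjusted p 0.0585 and 0.063).

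Membrane-scaffold genes moved the same way as the cytoskeleton. Caveolins, annexins and S100 proteins rose in 13 of 16 (81.2%) and 0 were called lower by limma (0 at an unadjusted p below 0.05). CAV1, the main coat protein of caveolae, went from 4.11 and 4.08 to 8.80 and 9.01. ANXA8 and ANXA1, calcium-dependent membrane-binding annexins, rose by 3.35 ± 0.42 and 2.88 ± 0.13. S100A10, which partners ANXA2, rose by 2.88 ± 0.13, and ANXA2 by 1.24 ± 0.10.

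Cell junction genes rose in 11 of 29 (37.9%) and fell in 5 (17.2%), and the 4 arrays alone called 7 higher and 3 lower, with 7 higher also without the first 0 h array and 3 lower without the second. CDH2, N-cadherin, the cadherin of granulosa cells, fell from 10.23 and 10.49 to 9.37 and 9.22. CDH11, a cadherin of mesenchymal cells, rose from 3.88 and 3.95 to 9.18 and 7.72. The cadherins thus moved in opposite directions, each by more than the gap between arrays of a time. GJA1, connexin 43, the main gap junction protein between granulosa cells, differed by -0.37 ± 0.11, but median centring and the 4 arrays alone ended this call (adjusted p 0.0812 and 0.135), as did leaving out either 0 h array (0.125 and 0.123). GJA5, connexin 40, fell by 1.18 ± 0.16. DSP, the desmosomal protein desmoplakin, rose by 2.75 ± 0.16. Among intermediate filament genes, KRT8 rose from 4.67 and 4.96 to 6.69 and 7.76. KRT18, its usual partner keratin, had a difference of -0.30 (95% interval -0.63 to 0.04) and was not called. KRT19 rose by 2.62 ± 0.52, but the 144 h arrays read 6.46 and 8.39 and so differed by more than 1.

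Proteases and their inhibitors rose in 21 of 40 (52.5%). Plasminogen activation, used by the follicle at ovulation, was represented on both sides. The activators PLAT and PLAU rose by 2.47 ± 0.13 and 2.60 ± 0.13. SERPINB2, an inhibitor of these activators, rose from a dim 2.87 and 2.87 to 7.95 and 8.77. SERPINE2, another inhibitor, fell from 10.81 and 10.80 to 8.05 and 7.71. The inhibitors therefore exchanged places, with no overlap between times for either. CTSK, a collagen-degrading cathepsin, rose by 2.58 ± 0.12, and TIMP3, an inhibitor bound to the matrix, fell by 1.93 ± 0.29. A2M, a broad protease trap, rose by 3.61 ± 0.21.

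Markers of fibroblasts and stroma rose beside the matrix genes, and the lists share members. Of 18 measured, 13 rose (72.2%) and 1 fell, with a median of 2.91. Their summed linear intensity was 718 and 841 at 0 h and 14367 and 11557 at 144 h. Defining surface proteins of fibroblasts were among them: THY1 went from 3.80 and 4.09 to 8.07 and 6.96 and FAP, a fibroblast protease, from 2.92 and 3.08 to 7.54 and 5.47. PRRX1, a mesenchymal transcription factor, went from 5.10 and 5.39 to 9.86 and 8.43. TWIST1, another such factor, had a difference of -0.21 (95% interval -0.52 to 0.10). C7, a complement component made by ovarian stroma, fell from 6.42 and 6.54 to 3.23 and 3.97. Smooth muscle and pericyte markers rose in 8 of 13 and fell in 3, a count of falls that came to 1 without the second 0 h array or the first 144 h array, without either 96 h array and in the 4 arrays alone. The falls were MYOCD, RGS5 and KCNJ8, of which KCNJ8 was chosen after its value was seen. The sum over the markers went from 735 and 810 to 8207 and 7948. TAGLN, ACTA2 and CNN1, already counted among the actin and contractile genes, held most of that sum at 144 h. The sum is therefore not separate from their rises. The part of such cells in the rise of the matrix and contractile genes was not tested.

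Lists for other cells that a follicle aspirate can hold moved in different directions. Oocyte genes fell in 12 of 19 measured members (63.2%, against 17.6% of all named genes), with 0 rises (0 at an unadjusted p below 0.05). Their summed intensity was 2635 and 2469 at 0 h against 1167 and 1462 at 144 h. ZP4, an egg coat protein, went from 6.39 and 5.94 to 3.29 and 2.92, and BMP15, an oocyte growth factor, from 5.65 and 5.31 to 2.69 and 2.89. These oocyte transcripts were therefore present at 0 h and lower on both 144 h arrays. The list also holds KIT and JAG1, given above as a receptor kinase and a Notch ligand. Its count and sum are therefore not a measure of oocyte RNA alone. Macrophage and leukocyte markers fell in 13 of 34 (38.2%) and rose in 2 (5.88%). They summed to 1927 and 1866 at 0 h and 1102 and 1375 at 144 h. SLA-DRA, a class II antigen-presenting chain, fell from 7.75 and 8.05 to 4.74 and 6.02. Theca markers summed to 1850 and 1870, then 3749 and 3732, but the rises in that list were ACTA2 and FBLN5, which stroma also makes. Its falls included LHCGR, given above as a granulosa gene. INSL3, a theca hormone, fell by 1.60 ± 0.12. Endothelial markers rose in 2 and fell in 2 of 13 (15.4% each), near the shares of 19.2% and 17.6% over all named genes. Red cell markers summed to 53 and 48 at 0 h and 47 and 57 at 144 h. Surface epithelium markers rose in 3 of 10 (30%), with 0 falls (0 at an unadjusted p below 0.05). They summed to 214 and 234 at 0 h but to 403 and 800 on the 144 h arrays, which therefore differ in this respect. The 3 rises were KRT8, KRT19 and WT1, and WT1 is also on the granulosa identity list. Both keratins read higher on the second 144 h array than on the first.

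**Figure D3:**
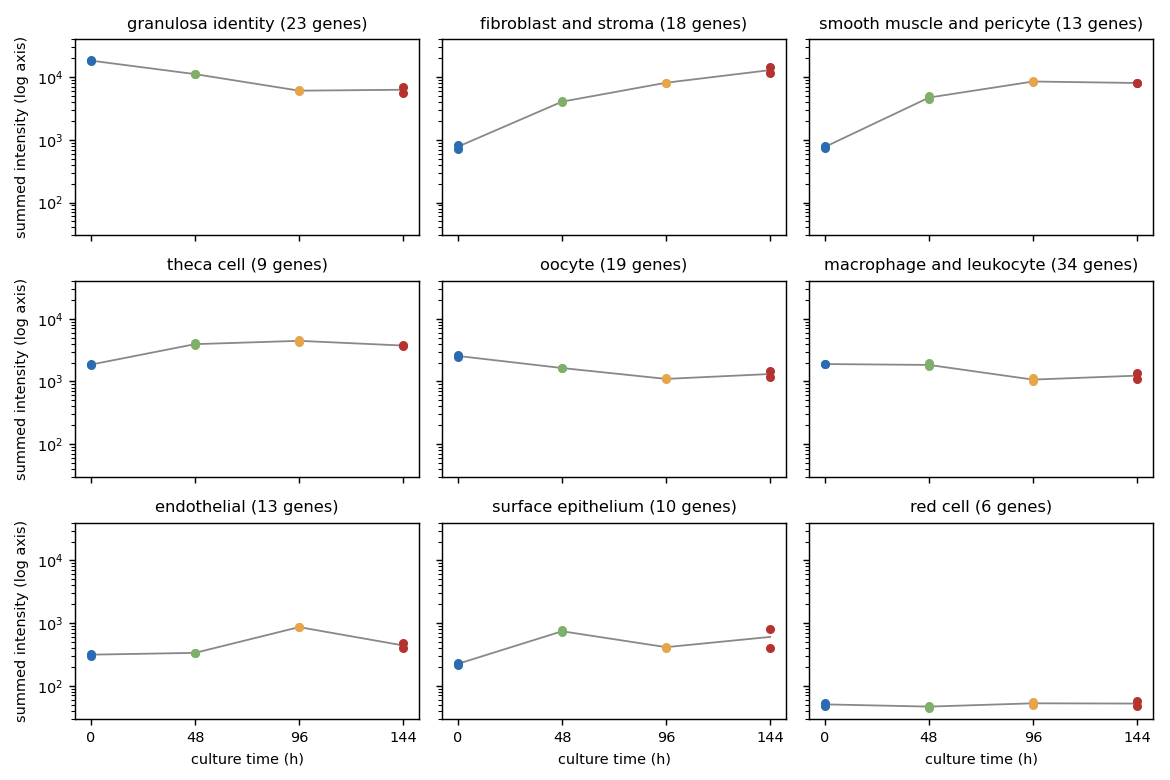
Summed linear intensity of the measured members of 9 marker lists on each of the 8 arrays by culture time (h), on a log axis; points are arrays and lines join the means. The sum of granulosa identity genes falls while those of fibroblast and smooth muscle markers rise, and the 144 h arrays stand apart for surface epithelium markers.

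Mitosis and DNA replication fell almost as a block. Of 51 measured members, 46 fell (90.2%) and 2 rose, with a median of -1.39. CCNE2, cyclin E2, which starts replication, read 9.66 and 9.59 at 0 h and 5.71 and 5.23 at 144 h, a difference of -4.15 ± 0.20 (adjusted p 2.79e-06). TOP2A, the topoisomerase of dividing cells, went from 9.26 and 9.14 to 6.66 and 6.14. CDC20, which triggers anaphase, went from 8.54 and 8.64 to 5.91 and 6.19. Genes for the start of replication and for the end of mitosis were thus both lower. The called rises were CCNE1 and ANLN. CCNE1, cyclin E1, rose from 5.18 and 5.36 to 6.65 and 6.26, opposite to its relative CCNE2. ANLN, anillin, which also organises the actin cortex, rose by 0.88 ± 0.11. Inhibitors of the cycle were divided. CDKN1A, the inhibitor p21, rose from 6.28 and 6.13 to 8.80 and 8.43, and CDKN2B, the inhibitor p15, by 2.31 ± 0.26. CDKN2C, the inhibitor p18, fell from 6.61 and 6.71 to 4.38 and 4.28. CCND2, the cyclin through which follicle-stimulating hormone drives granulosa cells, fell by 0.66 ± 0.13. Of 21 such genes, 8 rose and 8 fell (38.1% each).

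Apoptosis genes rose in 9 of 18 (50%) on both sides of the balance, a count that dropped to 5 without the first 0 h array. BCL2 and BCL2L1, which protect cells, rose by 0.95 ± 0.16 and 0.68 ± 0.11. BCL2L11, which promotes death, rose by 0.78 ± 0.11. CASP1, the inflammatory caspase, rose by 2.45 ± 0.20. A single member of the list, 1 of 18 (5.56%), was called lower, and the differences in the list ran from -2.14 to 2.45.

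The interferon response fell without exception among its called genes. Of 26 measured, 23 fell (88.5%), 0 rose (0 at an unadjusted p below 0.05), and the median was -1.12. CXCL10, an interferon-induced chemokine, read 7.48 and 8.07 at 0 h and 2.65 and 2.87 at 144 h, a difference of -5.01 ± 0.22 (adjusted p 1.53e-06). IFIT1, an antiviral RNA-binding protein, went from 6.75 and 6.89 to 3.58 and 3.20. MX2 and MX1, antiviral GTPases, both fell, with differences of -2.67 ± 0.28 and -1.94 ± 0.12. The fresh cells therefore had the higher values for these genes on both arrays. Macrophage and leukocyte markers, whose sums are given above, were also lower at 144 h, and their part in this fall was not tested.

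Other immune genes went the other way more often. Chemokines, cytokines and complement rose in 18 of 51 (35.3%) and fell in 11 (21.6%), and the falls came to 6 without the second 0 h array. CCL2, which draws monocytes, went from 6.32 and 6.28 to 10.79 and 11.03. VCAM1, a leukocyte adhesion molecule, went from 3.98 and 4.32 to 9.01 and 8.68. Both were far above their 0 h levels on each array. IL6 and LIF, cytokines that share a receptor chain, rose by 2.04 ± 0.17 and 3.43 ± 0.22, and OSMR, the receptor for the related oncostatin M, rose from 3.66 and 3.36 to 8.14 and 8.02. The other feature of OSMR differed by 2.97, and IL6 was dim at 0 h. PTGES, which makes prostaglandin E2, fell from 9.32 and 9.30 to 5.53 and 5.90. PTGS2, the upstream cyclooxygenase that ovulation induces, was chosen after its value was seen and had a difference of -0.03 (95% interval -0.38 to 0.32).

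Heat shock and folding genes fell in 12 of 35 (34.3%) and rose in 7 (20%). DNAJB1, a stress-induced co-chaperone, fell from 10.46 and 10.55 to 7.71 and 7.80. ATF3, an early stress transcription factor, fell by 2.35 ± 0.19, and DDIT4, which restrains mTOR, fell by 1.75 ± 0.16. HSPB8, a small heat shock protein, rose by 2.11 ± 0.15.

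Genes for amino acid synthesis and for sugar use rose more often than they fell. Those for serine, asparagine and one-carbon metabolism rose in 9 of 18 (50%). PHGDH, PSAT1 and PSPH catalyse successive steps from a glycolytic intermediate to serine, and all 3 rose. PSAT1 went from 5.23 and 4.95 to 7.97 and 7.29, PHGDH differed by 1.47 ± 0.21 and PSPH by 1.13 ± 0.11. SLC1A5, which imports glutamine, rose by 2.14 ± 0.20. GPT2, which makes alanine in mitochondria, fell from 9.43 and 9.35 to 5.16 and 5.14. Glycolysis and hypoxia genes rose in 13 of 27 (48.1%) and fell in 4, and the falls came to 1 without the second 0 h array and to 2 in the 4 arrays alone. HK1 and HK2, the hexokinases that trap glucose, rose by 2.13 ± 0.13 and 1.67 ± 0.12. PDK4, which holds pyruvate back from the mitochondria, fell from 8.07 and 8.33 to 4.48 and 3.92. GYS1, glycogen synthase, rose by 1.81 ± 0.12. Respiratory chain and mitochondrial genes rose near the background share, with 8 of 40 higher (20%) against 19.2% of all named genes. Their falls were fewer than the background of 17.6%, at 0 lower (3 at an unadjusted p below 0.05), and the median was 0.16. The 4 arrays alone called 4 higher and 0 lower in that list, cyclic loess normalization gave 4 higher and 3 lower, and without either 0 h array 4 were higher.

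Glutathione and redox genes moved both ways. Of 32 measured 11 rose (34.4%) and 9 fell (28.1%). Both subunits of the enzyme that limits glutathione synthesis fell, GCLC from 10.56 and 10.68 to 7.73 and 7.83, and GCLM with a difference of -1.19 ± 0.15. NQO1, a quinone reductase, fell by 2.13 ± 0.15. SRXN1, which repairs oxidised peroxiredoxins, rose from 4.02 and 4.06 to 6.29 and 6.25, and SOD2, the mitochondrial superoxide dismutase, rose by 2.05 ± 0.23. Lysosome and autophagy genes rose in 23 of 39 (59%) and fell in 1, with a median of 0.53. CTSC, a cathepsin that activates other proteases, rose by 2.42 ± 0.10. ATP6V1A, a subunit of the proton pump, rose from 6.74 and 6.81 to 9.23 and 8.76. CTSO, another cathepsin, was the called fall, at -1.22 ± 0.11.

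Solute carriers and channels rose in 22 of 77 (28.6%) and fell in 12 (15.6%). SLC1A1, a glutamate and cysteine importer, rose from 3.48 and 3.22 to 8.47 and 7.22. ITPR2, a calcium release channel, fell by 2.08 ± 0.17. Outside the lists, RHBG, an ammonium transporter, fell from 7.08 and 7.28 to 2.75 and 3.09. ANPEP, a surface aminopeptidase, rose from 3.72 and 3.75 to 9.84 and 9.21.

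Developmental transcription regulators, with 13 of 64 higher (20.3%) and 11 lower (17.2%), stood close to the background as a list. Single members still moved far. ETS1, a transcription factor of mesenchyme and endothelium, rose from 3.81 and 3.92 to 7.53 and 7.43. SOX9, a factor of the testis and of cartilage, rose by 2.16 ± 0.14. FOXM1, which drives mitotic genes, fell by 1.99 ± 0.14, and EMX2, a factor of the developing gonad, fell by 1.97 ± 0.23. SNAI2, a repressor of epithelial genes, had a difference of 0.07 (95% interval -0.22 to 0.37). Guidance cues rose in 13 and fell in 11 of 34 (38.2% and 32.4%). PLXNC1, a semaphorin receptor, fell from 8.02 and 8.36 to 5.40 and 4.74, and ROBO2, a Slit receptor, fell by 2.88 ± 0.11. PLXND1, another semaphorin receptor, rose by 2.44 ± 0.18.

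Primary cilium genes fell in 14 of 38 (36.8%) and rose in 3, with a median of -0.23. DYNC2LI1, part of the motor that returns cargo from the ciliary tip, fell from 8.21 and 8.18 to 6.70 and 6.19, and TCTN2, of the gate at its base, fell by 1.41 ± 0.14. The 4 arrays alone called 7 lower and 1 higher, and median centring left 9 lower. Leaving out 1 array gave 7 to 13 lower and 1 to 5 higher.

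**Figure D4:**
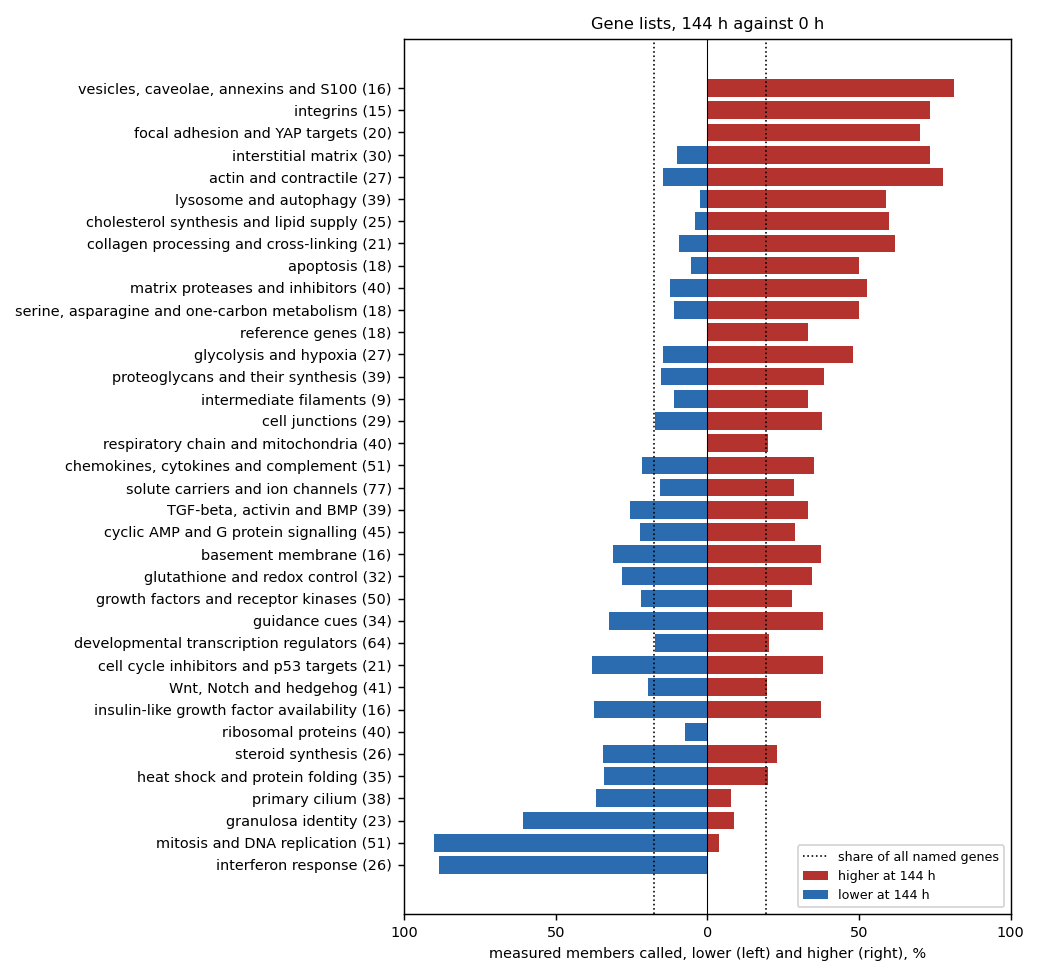
Share of the measured members of each gene list other than the cell type markers (number measured in brackets) that were called higher (red, right) or lower (blue, left) at 144 h than at 0 h, in percent; dotted lines mark the shares over all named genes, 19.2% and 17.6%. Interferon and mitosis lists reach furthest to the left, and the caveolae, integrin, adhesion, matrix and actin lists furthest to the right.

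Several genes often used to scale other measurements stayed flat and several did not. GAPDH, a glycolytic enzyme, had a difference of 0.19 (95% interval -0.13 to 0.51) and was chosen after its value was seen. ACTB, beta-actin, was called at 0.33 ± 0.10, but not in the 4 arrays alone (adjusted p 0.149) nor under quantile or cyclic loess normalization (adjusted p 0.0709 and 0.647), nor without either 0 h array (0.155 and 0.114). TFRC, the transferrin receptor, rose by 0.78 ± 0.11. Of 18 reference genes 6 rose and 0 fell (0 at an unadjusted p below 0.05), whereas cyclic loess normalization gave 4 rises and 3 falls, and without the second 0 h array there were 3 rises. Of 40 ribosomal protein genes 3 fell and 0 rose (2 at an unadjusted p below 0.05), with a median of 0.01, which cyclic loess moved to -0.14 with 7 falls, while leaving out 1 array gave 1 to 5 falls. Over all named genes, 3562 were not called and had a 95% interval within 0.5 of 0. The narrowest such intervals above the dim level were those of ANK3, a membrane-skeleton ankyrin, from -0.27 to 0.19, and of COX7C, a respiratory chain subunit, from -0.27 to 0.20.

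The values at 48 h and 96 h place these changes in time. Comparisons of 48 h and of 144 h with 0 h share the 0 h arrays, so their values are set side by side, and the change after 48 h was tested directly between 144 h and 48 h, where 1116 of the 10707 named genes were called (10.4%), 592 higher (5.53%) and 524 lower (4.89%). Over all features that comparison called 2381 (8.64%), 1070 without the first and 1231 without the second 48 h array, 1576 without either 96 h array and 3879 without the first 144 h array. LOX had reached 11.26 and 11.32 by 48 h and read 11.48 and 11.43 at 144 h. HSD3B1 read 10.42 and 10.29 at 48 h, and its difference between 144 h and 48 h was -0.50 (adjusted p 0.104). Both genes had thus made their rise within 48 h. LHCGR still read 10.27 and 10.21 at 48 h, and its 144 h minus 48 h difference was -4.80 ± 0.28 (adjusted p 8.03e-05). GSTA1 read 10.69 and 10.70 at 48 h and 4.02 and 4.30 at 96 h. For these genes nearly all of the fall came after 48 h. ITGA8 read 4.00 and 3.93 at 48 h and rose by 5.10 ± 0.26 from there (adjusted p 4.58e-05). COL1A1 rose over both intervals, from 8.89 and 9.04 at 48 h to 12.28 and 11.86 at 144 h.

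**Figure D5:**
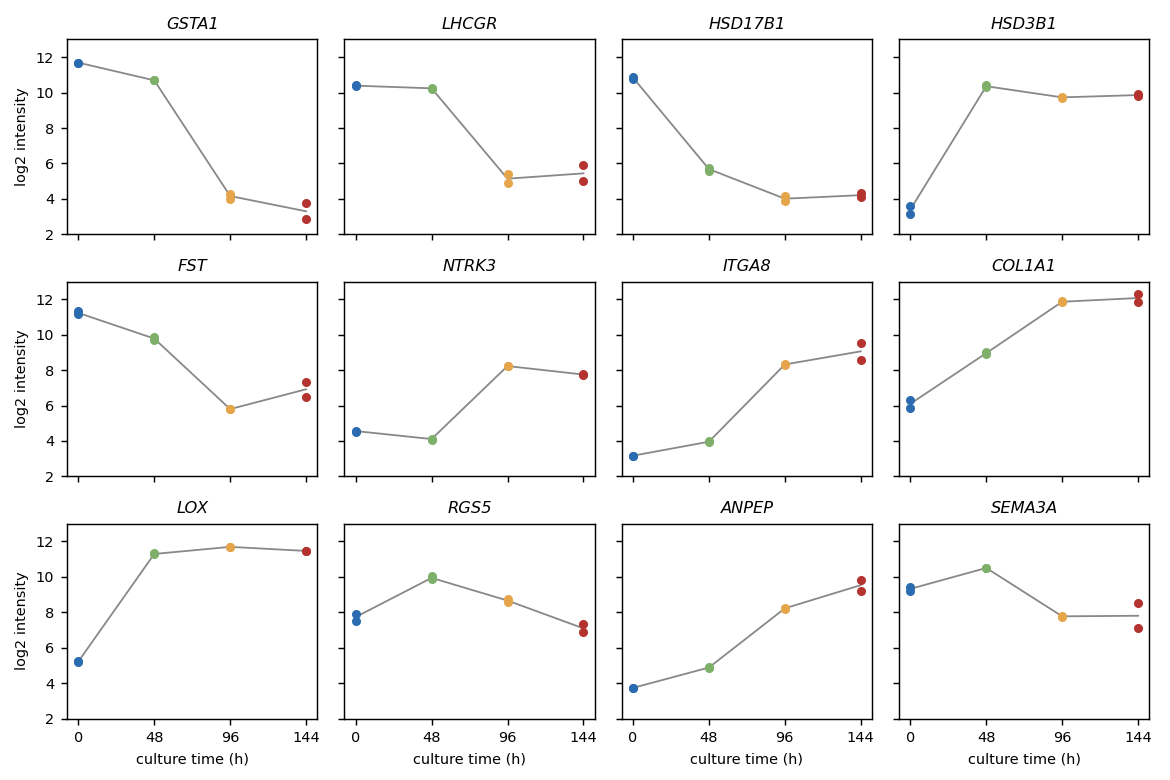
Log2 intensity of 12 genes against culture time (h); points are single arrays, 2 per time, and lines join the means. LOX and HSD3B1 have risen by 48 h, LHCGR and GSTA1 fall between 48 h and 96 h, and SEMA3A and RGS5 rise before they fall.

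The 144 h arrays were not equally far from 0 h. Among the 2058 genes that rose, the first 144 h array lay further from the 0 h mean in 1225 (59.5%), with median distances of 1.00 for the first and 0.91 for the second array. Among the 1883 that fell it lay further in 1032 (54.8%), with medians of 0.89 and 0.82. The gap between the 144 h arrays was over 1 in 61 genes that rose and 32 that fell. C1QTNF3, a secreted C1q-like protein, had the widest gap, reading 7.37 and 4.33 at 144 h against 3.09 and 2.99 at 0 h, and its call was lost in the 4 arrays alone (adjusted p 0.0765) and without either 0 h array. NR1H4, the bile acid receptor, differed by 2.86 ± 0.67, and its call was lost without either 0 h array (adjusted p 0.0502 and 0.0757). SFRP1 and FAP, given above, were also among the 5 genes with the widest gaps. These genes lay on one side of their 0 h arrays on both 144 h arrays, so their direction was shared while their size was not.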

How the data were processed

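The authors deposited log2 intensities from an Affymetrix whole-transcript array, processed with RMA (robust multi-array averaging) per the submitters' processing notes. Its software and settings and the genome build are not given in the sources used. RMA brings arrays to a common distribution and so hides any change common to most transcripts. Groups came from the labels. limma 3.58.1 in R 4.3.3 (lmFit, eBayes) fitted 1 mean per time to all 8 arrays (4 residual and 3.98 prior degrees of freedom, median SE 0.143), two-sided, with Benjamini-Hochberg adjustment over 27558 features. No further filter or normalization was applied, and 0 value columns were left unused. Gene names came from GEO's platform annotation (11735 features with 1 symbol, 612 with several, 15211 with none; 6 symbols updated), and the feature with the highest mean over 8 arrays stood for a gene.

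The comparison and the 44 gene lists (1278 of 2029 places measured) were chosen with earlier results of these data known. The naming rule took the 30 largest rises and 30 largest falls among called genes whose arrays did not overlap between times. It also took up to 6 members per list by size and 2 more each way, and a fixed gene set. The 10 widest gaps between 144 h arrays, the 10 largest opposite changes and the 10 narrowest intervals completed it. Fits were tested on simulated arrays with 200 features changed per run. They recovered 91.6% of features raised by 2, 52.2% of those raised by 1, 55.2% of those changed by -1 and 4.8% of those raised by 0.5. Of the features called there, 4.23% had not been changed. A gene that is not called may therefore still have changed. The simulation changed a far smaller share of features than was called in the data. It also drew the same scatter at every time, unlike the duplicates. Its shares therefore need not hold for the real comparison. Alternatives were other normalizations, a dim filter, array weights, 4 arrays alone, a replicate block, thresholds, and leaving out each array.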

Additional observations from a re-analysis of the deposited data

Results flagged for a closer look

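The effects of 48 h and of 144 h of culture against 0 h went in opposite directions in 38 named genes, of which 14 ended above and 24 below the fresh cells, with each effect called by limma and a called difference between 144 h and 48 h. Both effects use the same 0 h arrays, so only the direct difference of 144 h minus 48 h is a test of the change between them. The 10 genes with the largest such difference follow, 9 of which rose first and then fell below the fresh cells. Why they turned was not tested.

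ANO3, a member of the anoctamin family of membrane proteins, stood 1.02 against 0 h at 48 h and -2.42 at 144 h, and its difference between 144 h and 48 h was -3.44 ± 0.12 (adjusted p 1.25e-05). CNTN5, a neural adhesion protein, went from 1.63 to -1.45, a change of -3.08. ADGRL4, an adhesion receptor best known from endothelium, went from 2.25 to -0.66, a change of -2.91. HAPLN1, which links hyaluronan to proteoglycans, went from 1.52 to -1.01, a change of -2.52. These 4 genes were thus raised at 48 h and ended lower than in fresh cells.

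Vessel and guidance genes were also among them. ANGPT2, an angiopoietin, went from 0.61 to -1.98, a change of -2.59. RGS5, a G protein regulator of pericytes, went from 2.22 to -0.64, a change of -2.86. BMPER, an extracellular regulator of bone morphogenetic proteins, went from 2.37 to -0.35, a change of -2.71. The semaphorin SEMA3A went from 1.18 to -1.51, a change of -2.69, and SEMA6A from 0.48 to -2.05, a change of -2.53. For RGS5, BMPER and SEMA3A the 4 arrays of 144 h and 0 h alone gave adjusted p-values of 0.0952, 0.133 and 0.0555, and SEMA3A and RGS5 also lost that call without the second 0 h array (adjusted p 0.0559 and 0.199). BMPER lost it under most alternatives. In limma fits its adjusted p was 0.0707 with median centring, 0.0735 with quantile normalization, 0.113 with cyclic loess and 0.0966 with array weights. Its place below the fresh cells is therefore not secure.

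NTRK3, a neurotrophin receptor, took the opposite course. It stood -0.45 against 0 h at 48 h and 3.20 at 144 h, a change of 3.65 ± 0.10 (adjusted p 4.46e-06).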

How the results depend on the processing

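Against 4240 features called higher and 4605 called lower after culture, the other normalizations, the dim filter, eBayes with trend and robust, array weights and the 4 arrays alone gave 3190 to 4615 higher and 3246 to 4612 lower. Adjusted p below 0.01 left 2941 lower. A fold of at least 2 left 1915 higher, 1761 lower and 442 of 678 called list members. With 1 feature per named gene there were 2058 and 1883. Leaving out 1 array gave 3133 to 4937 higher, 3219 to 5249 lower and 560 to 724 list members. The difference of 144 h from 48 h, with 2381 features called, also moved: 1510 with array weights per time, 825 with the 4 arrays alone, 1576 without the 96 h arrays (chosen after seeing the data), 1120 at an adjusted p below 0.01, 865 at 2-fold, 1116 with 1 feature per named gene, and 1070 to 3879 without 1 array. Array weights put the 144 h arrays at 0.402 and the 96 h arrays at 2.33.

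Replicate numbers did not pair the arrays: correlations of their deviations between times ran from -0.0382 to 0.188. A replicate block gave 4222 higher and 4609 lower. Of 384 called genes in the naming rule, 343 kept call and direction under each alternative run (18 at most), 41 lost the call at least once (27 in the 4 arrays alone) and 0 reversed. The rule chose genes mainly by the size of their change, so they are more likely than others to keep a call. Over all 3941 called named genes, the 4 arrays alone kept 2911. With a single array left at a time, it is assumed to vary like the other times. Values near the lower quartile cannot show how far a transcript fell.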

Other observations

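Several of the largest changes lay outside the gene groups described above. Among the falls, HDC, which makes histamine, read 9.85 and 9.91 at 0 h and 5.57 and 6.48 at 144 h. CDO1, which starts the breakdown of cysteine, went from 9.39 and 9.30 to 5.42 and 4.41. NUP210, a nuclear pore protein, went from 8.38 and 8.50 to 3.50 and 4.92, and its 144 h arrays lay well apart. AMIGO2, a neural adhesion protein, differed by -4.31 ± 0.24. MCOLN3, an endosomal cation channel, differed by -3.87 ± 0.18, and SYT10, a synaptotagmin that senses calcium during secretion, by -4.21 ± 0.17. ITM2A, a membrane protein of differentiating mesenchyme and T cells, fell from 7.94 and 7.86 to 3.11 and 3.61.

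Among the rises, CLIP4, a microtubule-binding protein, went from 2.67 and 3.16 to 8.69 and 8.98. MSRB3, which repairs oxidised methionine, went from 4.37 and 4.93 to 9.89 and 9.98. PCP4L1, a small relative of a calmodulin regulator, went from 4.23 and 3.59 to 8.39 and 9.16. The rule that chose all 3 required both 144 h arrays to lie above both 0 h arrays. Features without a single gene symbol, 15823 in all, held 2013 that rose and 2562 that fell, with differences from -7.64 to 7.12, so part of the largest changes could not be named.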
